A study of Mus musculus with 29 samples.

Results

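The genes described here are 10 regulators of colon epithelial metabolism, taken by symbol from the 54532 genes of a colon RNA-seq table: Nr1i2 (PXR), Nr1i3 (CAR), Nr1h4 (FXR), Ppara, Pparg, Ppargc1a (PGC-1alpha), Vdr, Hnf4a, Nr5a2 (LRH-1) and Ahr. All 10 were found by their Ensembl identifiers and all 10 passed the filter of a mean count of at least 3 over the mice. The table holds colon segments of 29 mice in 9 groups, with 3 mice in each group except TRUC and IL10, which have 4. Each of 6 colitis models was compared with its own control, which asks whether the same regulators change in colitis of different origin.

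On the Balb/C strain, the labels give an untreated wild type group (WT control), mice given 3% DSS in drinking water for 5 days and culled at day 10, mice given 3 mg DNBS rectally in ethanol, and an IL10 group. Also on Balb/C are untreated Rag2-/- mice (Rag2 control) and untreated Tbx21-/- x Rag2-/- mice (TRUC), which get colitis without any treatment. On C57BL/6 Rag1-/- the labels give untreated mice (Rag1 control), mice that received 500000 naive CD4+ T cells and were culled after 6 to 8 weeks (TCT), and mice given 50 µg of agonist anti-CD40 and culled after 7 days. Rag1-/- and Rag2-/- mice make no T or B cells of their own, in controls and models alike. The study's methods give an age only for the TCT donors and recipients. DSS, DNBS and IL10 share the WT controls, and TCT and anti-CD40 share the Rag1 controls, so their results are given side by side and not as independent tests.

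The labels go against other sources, or against the reads, at several points. The IL10 group is labelled as treated with a blocking antibody, the protocol names 750 µg of antibody against the IL-10 receptor, and the study's methods describe Il10-/- mice. For DSS the labels give Balb/C and a cull at day 10, where the methods describe C57Bl6 mice and an earlier cull. Il10 itself had 61 to 111 counts in the 4 IL10 mice and 1 to 4 in the WT controls. The libraries labelled Rag1 control had 0 to 4 counts of Rag1 and 6 to 20 of Rag2, those labelled anti-CD40 had 0 to 2 and 48 to 99, and those labelled TCT had 20 to 33 and 0. The libraries labelled Rag2 control and TRUC, both Rag2-/-, had 15 to 25 and 57 to 94 counts of Rag2, and the WT controls had 0 to 1. The protocol text also calls the TCT recipients Rag2-/-. Tbx21 had 26 to 52 counts in TRUC and 1 to 7 in Rag2 controls. Which exons were deleted is not given in the sources used here, so reads of these genes do not settle the labels. The counts of members called in TCT and anti-CD40, their calls named below, and the calls of named targets that were lost, are therefore also given against WT and Rag2 controls respectively. By the labels these comparisons cross strain, C57BL/6 against Balb/C, and with WT controls also Rag genotype. Model, strain and genotype cannot be told apart in them.

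IL10 mouse 4 stood apart from the other 3 mice of its group. It held Slc51a at 119 CPM (read counts relative to library size, scaled by TMM) against at most 0.623 in the others. Its Trpv6 and Esrrg counts were 0, where the others had 127 to 257 CPM of Trpv6 and 4.63 to 4.89 CPM of Esrrg. Its Cdx2 level of 469 CPM lay above 167 CPM in mouse 3 and 11.3 to 15.6 CPM in mice 1 and 2. The IL10 changes of the members on the TMM scale and of the named targets are given with and without this mouse. Total counts ran from 10725564 to 14977094 per mouse, and 3 counts, the most that a count of 0 allows, are 0.179 to 0.314 CPM. These limits cover counting error only.

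As background, nuclear receptors are transcription factors that are switched by small fat-soluble ligands and mostly bind DNA next to the retinoid X receptors. In the gut, PXR and CAR sense drugs and microbial metabolites, FXR senses bile acids, the PPARs sense fatty acids and the vitamin D receptor controls calcium uptake and barrier genes. HNF4A and LRH-1 keep the epithelium differentiated and its crypts dividing. Ahr is not a nuclear receptor but a ligand-activated factor of another family that senses dietary and microbial indoles, and Ppargc1a is a coactivator that drives mitochondrial genes through such receptors. Most of these genes are expressed in the absorptive epithelium, and Pparg also in fat and Ahr also in lymphocytes and stroma.

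Sequence before the RefSeq start sites was matched for 9 of the 10 genes (13 start sites, assembly GRCm38.p6), all but Ahr. The 4 windows shown are those of Vdr and Nr5a2, the members whose every model mouse lay below its own controls in all 6 comparisons, and of Nr1h4, the member called higher in 4 models. Each window is the 250 bases before the start, read 5′ to 3′ on the gene's strand from the reference and not from these mice. Capitals mark the receptor half-site AGGTCA and the Ahr response core GCGTG on either strand, where TGACCT and CACGC are their reverse forms.

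The windows are given in the order Vdr, Nr5a2 (first and second start) and Nr1h4.
Vdr, chr15:97908297-97908546, minus strand: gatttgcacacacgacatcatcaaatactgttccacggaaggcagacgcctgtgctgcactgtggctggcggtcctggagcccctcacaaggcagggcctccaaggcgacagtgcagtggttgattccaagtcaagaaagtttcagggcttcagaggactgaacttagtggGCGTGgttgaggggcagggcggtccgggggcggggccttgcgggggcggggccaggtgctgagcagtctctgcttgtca
Nr5a2 first start, chr1:136960449-136960698, minus strand: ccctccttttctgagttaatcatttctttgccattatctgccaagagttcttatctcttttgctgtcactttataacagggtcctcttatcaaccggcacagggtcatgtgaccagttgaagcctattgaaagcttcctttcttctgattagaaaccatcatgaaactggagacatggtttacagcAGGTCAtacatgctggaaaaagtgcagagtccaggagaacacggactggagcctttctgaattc
Nr5a2 second start, chr1:136953631-136953880, minus strand: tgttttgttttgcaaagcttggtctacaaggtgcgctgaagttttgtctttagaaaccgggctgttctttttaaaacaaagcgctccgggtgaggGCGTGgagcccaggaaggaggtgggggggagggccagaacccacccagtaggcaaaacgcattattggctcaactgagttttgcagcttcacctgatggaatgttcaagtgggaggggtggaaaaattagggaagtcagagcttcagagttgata
Nr1h4, chr10:89506659-89506908, minus strand: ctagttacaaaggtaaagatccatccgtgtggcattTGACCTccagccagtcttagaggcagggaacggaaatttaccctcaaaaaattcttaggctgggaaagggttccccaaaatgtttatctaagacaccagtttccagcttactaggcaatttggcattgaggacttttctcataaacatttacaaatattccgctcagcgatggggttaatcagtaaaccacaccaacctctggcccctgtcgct

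The first Nr5a2 start held a half-site 59 to 64 bases before it, and its second start held an Ahr core 151 to 155 bases before it. Vdr held an Ahr core 75 to 79 bases before its start. Nr1h4 held a half-site on the opposite strand, 209 to 214 bases before its start. Except for the first Nr5a2 window, these windows lie inside the gene's annotated span, since the annotation also has transcripts that start further upstream. Over all 13 windows the half-site was found in 4 and the Ahr core in 4, against 4607 (half-site) and 9250 (Ahr core, 28.2%) of the 32851 windows of all genes. The E-box CACGTG, which shares the letters CGTG with the Ahr core, was found in 1 (Nr1i3) against 6.02% of all windows. The HNF4 site CAAAGTCCA was found in 0 of 13, against 0.384%. A match describes the letters only.

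Per kilobase of exon, the only scale on which genes can be compared, Hnf4a was the most abundant of the 10 in every group, with a mean of 148 ± 23.3 CPM per kb (SD, n = 3) in WT controls. It was followed there by Vdr at 64.2 ± 5.66, Nr1i2 at 48.8 ± 2.08 and Nr1h4 at 22.1 ± 0.705. Ppargc1a at 12.5 ± 3.21 and Pparg at 12.1 ± 2.44 did not differ beyond their spread, and Nr5a2 followed at 8.25 ± 1.05, Ahr at 3.88 ± 0.110 and Ppara at 1.30 ± 0.0477. Nr1i3 stood at 0.109 ± 0.0516, with 105 counts over all 29 mice, so CAR was close to the limit of detection. The order shifted in the models. In TRUC, Nr1h4 (59.9 ± 4.28, n = 4) lay above Nr1i2 (32.4 ± 3.44) and Vdr (17.2 ± 5.26), and Ppara was at 0.251 ± 0.0764. Between the 3 control groups no member differed past the threshold, the smallest adjusted p being 0.0931 for Hnf4a between Rag2 and WT controls.

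**Figure D1:**
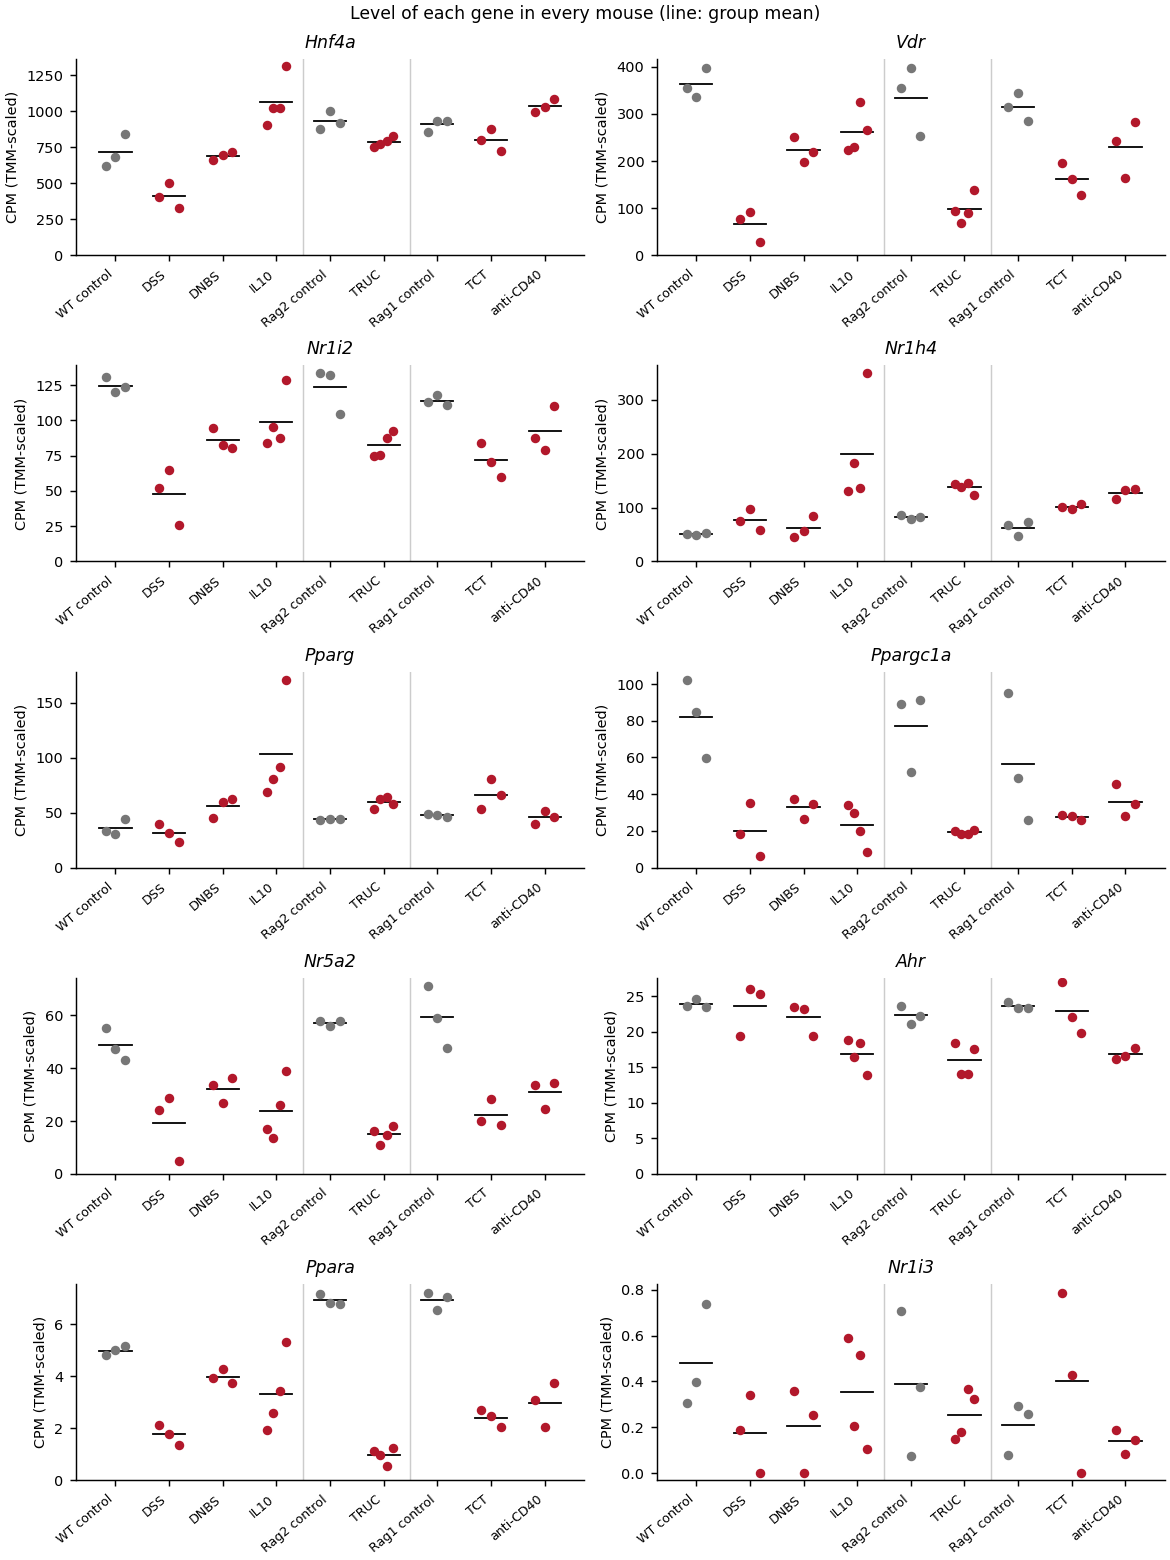
CPM of each of the 10 genes (vertical axes, linear, TMM-scaled) in every mouse of the 9 groups, with control mice in grey, colitis mice in red and a line at each group mean. Vdr and Nr5a2 points of every model lie below those of their own control, for Vdr in anti-CD40 only narrowly (282.6 against 285.1 CPM). IL10 mouse 4 is the highest point for Hnf4a (1313 CPM), Nr1h4 (349 CPM) and Pparg (171 CPM).

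Most changes were losses. With the threshold set at 0.05 for p values adjusted by Benjamini-Hochberg over 18616 genes (edgeR quasi-likelihood), 7 of the 10 genes changed in TRUC (1 higher, 6 lower), 6 in DSS (all lower), 6 in IL10 (3 higher, 3 lower), 5 in TCT (1 higher, 4 lower, and 2 in all without Rag1 control mouse 3 or TCT mouse 5, 3 without TCT mouse 3), 3 in anti-CD40 (1 higher, 2 lower) and 0 in DNBS. Over all genes, 22.4% were higher and 23.4% lower in TRUC, 17.7% and 16.3% in DSS, 27.2% and 26.1% in IL10, 16.1% and 14% in TCT, 10.9% and 10.7% in anti-CD40, and 3.95% and 2.21% in DNBS. Taking the median over the 10 genes, the log2 fold change was lowest in DSS (-1.32), then TRUC (-0.57) and anti-CD40 (-0.47), with DNBS and TCT at -0.43 and IL10 at -0.42, where that of all genes lay between -0.03 and 0.02. In IL10, 8 of the 10 passed without mouse 4 (3 higher, 5 lower), where 25.2% of all genes were higher and 24.7% lower. Against WT controls, 7 passed in TCT (2 higher, 5 lower), where 16.9% of all genes were higher and 13.8% lower. Against Rag2 controls 2 passed in anti-CD40, both lower, where 12.4% of all genes were higher and 11.8% lower. In DNBS, 4 of the 10 had an unadjusted p under 0.05 in edgeR (Nr1i2, Ppargc1a and Vdr lower, Pparg higher), DESeq2 called 1 (Ppargc1a), and edgeR on the 2 groups alone called 3. In DNBS 5 of the 10 lay wholly below the WT controls, as did 16.9% of all genes. For the other single models, and for genes wholly above their controls, no such share was counted. Where mice of a single model are said not to overlap their controls, this describes those mice only.

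**Figure D2:**
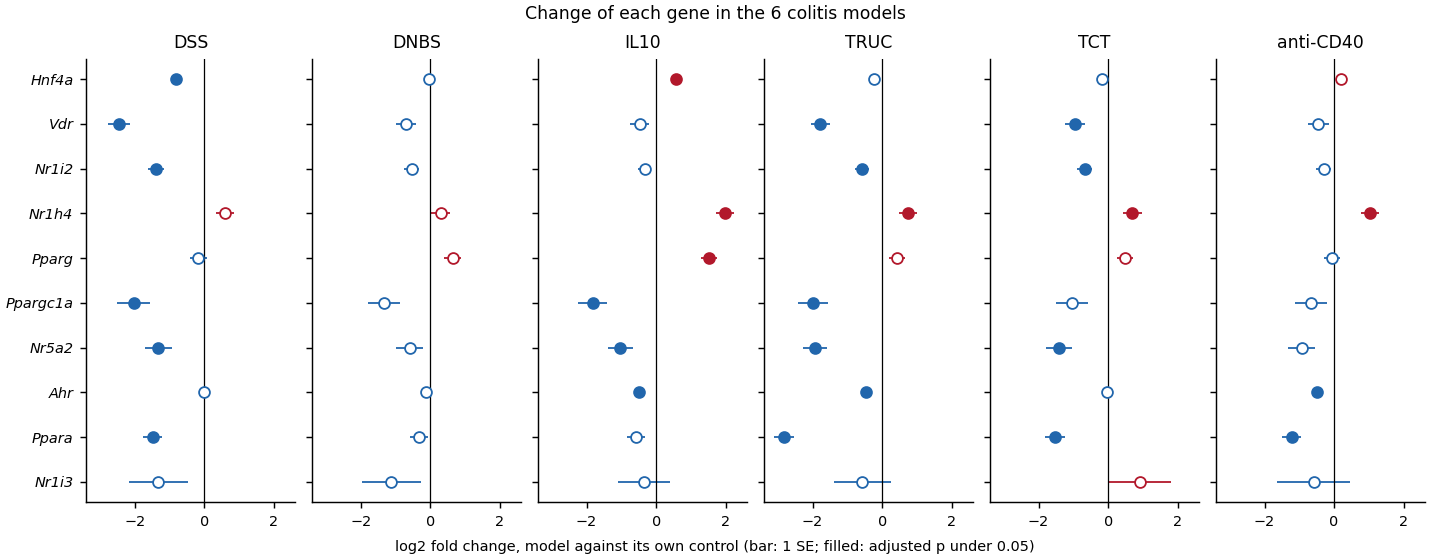
Log2 fold change of each gene (horizontal axes, model against its own control, 1 SE) in the 6 models, with filled points for an adjusted p under 0.05, red above 0 and blue below. Nr1h4 is the gene with filled red points in 4 models, Hnf4a is filled blue in DSS and filled red in IL10 (where it is -0.23 when scaled to epithelium markers), and DNBS has no filled point.

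In bulk tissue, fewer cells of a type and less RNA per cell cannot be told apart, so the values are given beside cell type markers. The 9 epithelium markers summed to 9069 to 10870 CPM in WT controls, 7223 to 8843 in DSS and 14590 to 21160 in IL10, and to 11480 to 12460 in Rag2 controls and 14810 to 16060 in TRUC. These markers did not all move together. Krt20 rose in 5 models (1.13 in DSS, 2.54 in IL10), while Krt8 (-0.58), Krt18 (-0.44) and Krt19 (-0.71) fell in DSS. Cdh1 passed in no model. The sum, and the scale built on it, carry these changes as well. Leukocyte markers (7 genes) rose from 108 to 126 CPM in WT controls to 454 to 2084 in DSS, the top being DSS mouse 8, and from 38.4 to 61.7 in Rag2 controls to 829 to 1328 in TRUC. Of the leukocyte markers 5 of 7 were higher in TRUC, DSS and IL10 (6 in IL10 without mouse 4), 6 in TCT, 3 in anti-CD40 and 2 in DNBS. When libraries were scaled to the epithelium markers instead, the median of all genes moved to -0.39 in TRUC, 0.33 in DSS, -0.18 in DNBS, -0.80 in IL10, -0.28 in TCT and -0.38 in anti-CD40. On that scale the 10 genes split into 0 higher and 7 lower in TRUC, 1 and 6 in DSS, 0 and 0 in DNBS, 2 and 6 in IL10 (the same without mouse 4), 0 and 6 in TCT, and 1 and 4 in anti-CD40. Over all genes on that scale, 10.2% were higher and 39.2% lower in TRUC, 30.4% and 6.26% in DSS, 1.56% and 2.51% in DNBS, 7.30% and 62.8% in IL10, 9.41% and 24.6% in TCT, and 3.87% and 25.2% in anti-CD40.

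**Figure D3:**
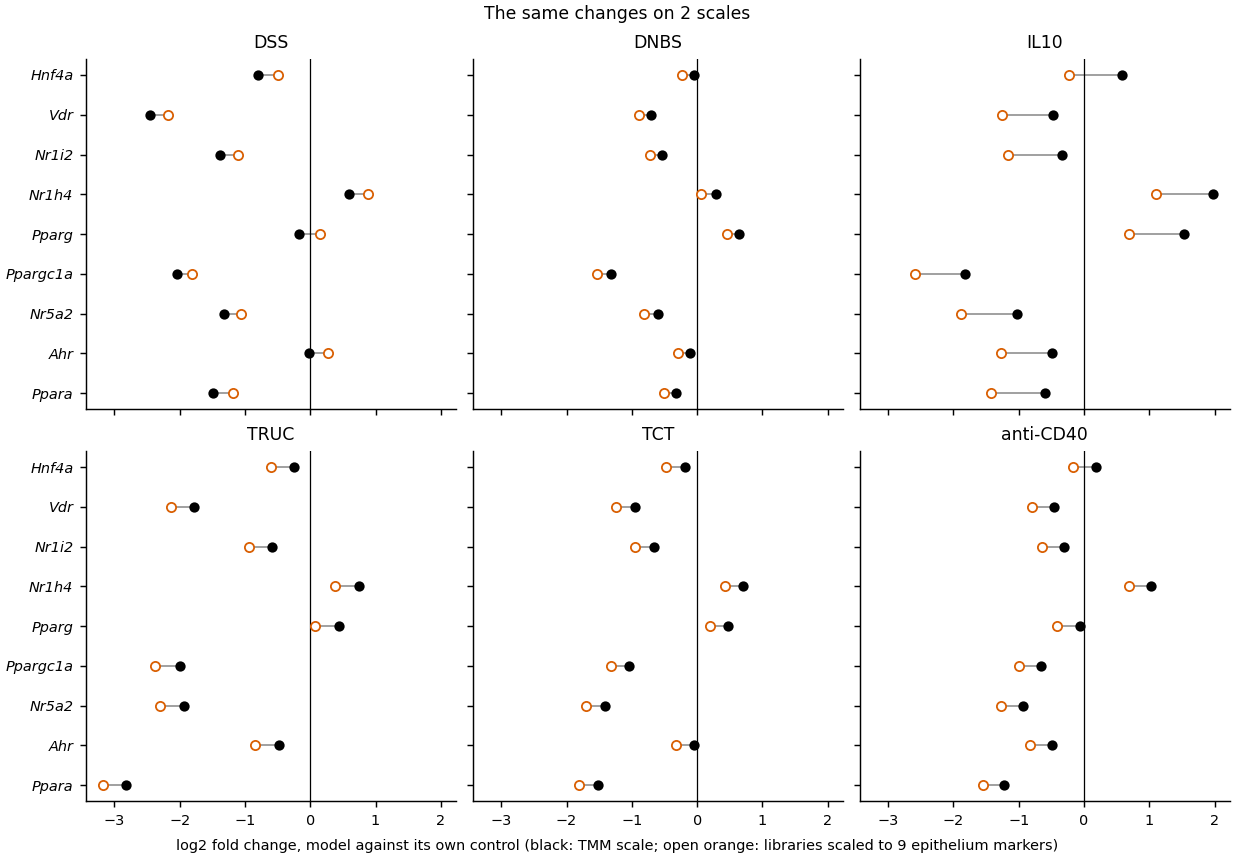
Log2 fold changes of 9 of the genes (Nr1i3 left out for low counts) in each model on the TMM scale (black) and with libraries scaled to the summed counts of 9 epithelium markers (open orange). The shift is to the right in DSS and to the left in the other models, and it turns Hnf4a in IL10 from 0.58 to -0.23 while Vdr, Nr5a2, Ppara and Ppargc1a stay below 0 in every panel.

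Nr1i2 (ENSMUSG00000022809, GRCm38 chr16:38248323-38294824, minus strand) encodes PXR, the xenobiotic receptor that induces detoxifying enzymes and drug pumps. It stood at 131, 120 and 124 CPM in WT controls, 51.9, 64.7 and 25.97 in DSS, 94.7, 82.9 and 80.4 in DNBS and 83.7, 95.4, 87.5 and 129 in IL10. The DSS and DNBS mice all lay below the WT controls, and IL10 mouse 4 was level with them. It was at 134, 132 and 105 CPM in Rag2 controls against 74.9, 75.7, 87.4 and 92.7 in TRUC, and at 113, 118 and 111 in Rag1 controls against 84.2, 70.7 and 59.9 in TCT and 87.3, 79.1 and 110 in anti-CD40. Nr1i2 fell to 38.2% of control in DSS (log2 fold change -1.39 ± 0.22 SE, adjusted p = 5.1e-05), to 66.9% in TRUC (-0.58 ± 0.20, adjusted p = 0.0194) and to 62.9% in TCT (-0.67 ± 0.21, adjusted p = 0.0200). It did not pass in DNBS (adjusted p = 0.122), IL10 (0.155) or anti-CD40 (0.323). In IL10 it did without mouse 4 (-0.50, adjusted p = 0.0400). The TRUC call was lost without Rag2 control mouse 1 (adjusted p = 0.0722) or 2 (0.0661) or TRUC mouse 3 (0.0503). The TCT call was lost without Rag1 control mouse 3 (0.0563), TCT mouse 3 (0.0546) or TCT mouse 5 (0.100), and against WT controls it held (-0.80, adjusted p = 0.00693).

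Nr1i3 (ENSMUSG00000005677, chr1:171213970-171220701, plus strand) encodes CAR, the closest relative of PXR. Its level was between 0 and 0.786 CPM in every mouse, at or near the limit of 3 counts, and it passed the test in no model. The 3' part of its exons overlaps Tomm40l on the opposite strand, which had 5289 counts in all, and 63.6% of its 50-base windows also occur there. Since strand use in the counting is not given, the few Nr1i3 reads cannot be assigned with certainty.

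Of 12 known PXR and CAR targets, 8 were tested, and 6 were lower in TRUC, 4 in DSS, 1 in DNBS, 4 in IL10, 3 in TCT and 3 in anti-CD40, with 1 higher in IL10 and 2 in TCT (against WT controls, 0 higher and 5 lower). Cyp2c55, a colon cytochrome P450 that PXR and CAR induce, fell in 5 models. It was at 394, 379 and 493 CPM in WT controls against 8.24, 51.7 and 1.52 in DSS and 0.0843, 0.416, 0.257 and 6.06 in IL10. In Rag2 controls it was at 138, 142 and 174 CPM and in TRUC at 0.0737, 0.178, 0.0916 and 0.570, where 3 counts or fewer stand behind some values. Every mouse of these models thus lay far below every control mouse. The log2 fold change was -9.30 in TRUC, -8.03 in IL10, -7.49 in TCT, -10.76 in anti-CD40 and -4.36 in DSS, and in DNBS it did not pass (-1.36, adjusted p = 0.275). Its counts were 0, 0 and 6 in anti-CD40, 36, 21 and 0 in TCT, and 1, 4 and 3 in IL10 mice 1, 2 and 3. The sizes of these largest changes are therefore uncertain, also in IL10 without mouse 4. Abcb1a, the drug efflux pump P-glycoprotein, fell in the same 5 models (log2 fold changes from -3.68 in TRUC to -2.21 in DSS), as did the carboxylesterase Ces2a (-2.43 in TRUC to -1.21 in IL10). Without IL10 mouse 4, 6 targets were lower in IL10 and 1 higher, with Cyp2c55 at -10.72, Abcb1a at -2.54 and Ces2a at -1.02. Of these, 2 changed sign: Cyp2c65 stood at 2.40 (adjusted p = 0.0667) with that mouse and at -2.79 (adjusted p = 0.000227) without it, and Aldh1a1 at 0.31 and -1.19.

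Nr1h4 (ENSMUSG00000047638, chr10:89454234-89533585, minus strand) encodes FXR, the bile acid receptor. Unlike most of the 10 it lay higher in the models. It was at 50.8, 49.4 and 52.6 CPM in WT controls, 74.5, 98.1 and 58.6 in DSS, 45.2, 57.4 and 85.1 in DNBS and 131, 183, 137 and 349 in IL10. All DSS and IL10 mice exceeded all WT controls, and DNBS overlapped them. It was at 85.8, 79.7 and 81.7 CPM in Rag2 controls against 144, 138, 146 and 124 in TRUC, and at 67.5, 46.6 and 73.0 in Rag1 controls against 101, 97.1 and 106 in TCT and 116, 132 and 134 in anti-CD40, again without overlap. Nr1h4 rose 3.92-fold in IL10 (log2 fold change 1.97 ± 0.26, adjusted p = 3.5e-06), 1.67-fold in TRUC (0.74 ± 0.25, adjusted p = 0.0189), 1.62-fold in TCT (0.70 ± 0.27, adjusted p = 0.0498) and 2.04-fold in anti-CD40 (1.03 ± 0.27, adjusted p = 0.00834). The IL10 rise was 1.55 on the log2 scale without mouse 4, 1.10 when scaled to the epithelium markers, and 0.85 with both.

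The calls of the smaller rises of Nr1h4 depended on single mice and on the scale. Leaving out each mouse in turn, the log2 fold change was 0.72 to 0.79 in TRUC, 0.54 to 0.84 in TCT and 0.86 to 1.16 in anti-CD40. Scaled to epithelium markers, it did not pass in TRUC (0.38, adjusted p = 0.0841) or TCT (0.43, adjusted p = 0.0831), while in DSS it then did (0.88, adjusted p = 0.00102, against 0.60 and 0.0858 on the TMM scale). The TRUC call was lost without Rag2 control mouse 2 (adjusted p = 0.0571) or 4 (0.0524). The TCT call was lost with RLE size factors (0.0539) and without any single mouse of 5 of the 6, all but Rag1 control mouse 4 (0.0693 to 0.198), and held against WT controls (0.99, adjusted p = 0.00757). The anti-CD40 call was lost without Rag1 control mouse 3 (0.0573) and against Rag2 controls (0.63, adjusted p = 0.0852).

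Of 5 FXR targets, 3 were tested, and Nr0b2 and Fgf15, the classical ileal and hepatic ones, had at most 3 counts in any mouse. Slc51b, a subunit of the basolateral bile acid exporter, rose in 5 models. It was at 3.05, 2.46 and 2.87 CPM in WT controls against 26.8, 32.8, 34.9 and 54.1 in IL10 and 5.60, 7.52 and 13.7 in DSS, and at 4.16, 3.75 and 4.00 in Rag2 controls against 19.0, 17.1, 21.7 and 16.5 in TRUC. In each of these models every mouse lay above its controls. Its log2 fold change was 3.73 in IL10, 2.22 in TRUC, 1.67 in DSS, 1.99 in TCT and 2.84 in anti-CD40, and in DNBS it was 0.39 (adjusted p = 0.645). Without IL10 mouse 4 the IL10 value was 3.49. The partner subunit Slc51a was called in IL10 through mouse 4 alone, and no mouse of any other group exceeded 0.262 CPM. Fabp6, the ileal bile acid binding protein, rose in TCT (2.37) and in IL10 (1.54, adjusted p = 0.0482), and the IL10 call was lost without mouse 4 (adjusted p = 0.107).

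Ppara (ENSMUSG00000022383, chr15:85734983-85802819, plus strand) encodes the fatty acid receptor that switches on fat burning. It was at 4.80, 4.99 and 5.16 CPM in WT controls, 2.14, 1.78 and 1.36 in DSS, 3.94, 4.26 and 3.75 in DNBS and 1.94, 2.597, 3.43 and 5.33 in IL10. Only IL10 mouse 4 reached the WT controls. It was at 7.17, 6.81 and 6.79 CPM in Rag2 controls against 1.11, 0.978, 0.549 and 1.22 in TRUC, and at 7.21, 6.55 and 7.05 in Rag1 controls against 2.71, 2.48 and 2.04 in TCT and 3.10, 2.06 and 3.73 in anti-CD40. The gap was widest in TRUC, where Ppara stood at 14.2% of its control (log2 fold change -2.82 ± 0.28, adjusted p = 1.1e-07). Ppara also fell in DSS (-1.49 ± 0.28, adjusted p = 0.000331), TCT (-1.52 ± 0.28, adjusted p = 0.000196) and anti-CD40 (-1.22 ± 0.27, adjusted p = 0.00298). In IL10 it was at -0.59 ± 0.25 (adjusted p = 0.0533) with mouse 4 and at -0.92 (adjusted p = 0.00257) without it, and in DNBS at -0.32 (adjusted p = 0.476). Against the other controls the changes were -1.05 in TCT (WT controls, adjusted p = 0.00692) and -1.22 in anti-CD40 (Rag2 controls, adjusted p = 0.00294).

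The PPARalpha targets did not follow a single direction. Of 13 tested of 14, 1 was higher and 5 lower in TRUC, 2 and 4 in DSS, 2 and 0 in DNBS, 5 and 4 in IL10, 0 and 1 in TCT and 1 and 2 in anti-CD40, with medians between -0.29 and 0.19. Acadl, a mitochondrial acyl-CoA dehydrogenase, was higher in TRUC (0.98), DSS (0.96), IL10 (1.20) and anti-CD40 (0.87). Angptl4, a secreted lipase inhibitor, was higher in DSS (2.10), DNBS (2.66) and IL10 (1.68), and the pantetheinase Vnn1 in DNBS (1.69) and IL10 (2.54). Acadm, the medium-chain acyl-CoA dehydrogenase, chosen after its values were seen, was lower in 5 models (-1.20 in DSS to -0.48 in IL10) and at -0.27 in DNBS (adjusted p = 0.292). Without IL10 mouse 4 the IL10 counts were 5 and 3, and the values were 1.23 for Acadl, 1.66 for Angptl4, 2.24 for Vnn1 and -0.59 for Acadm. Scaled to epithelium markers the IL10 list turned to 2 higher and 8 lower, where 7.30% of all genes were higher and 62.8% lower.

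Pparg (ENSMUSG00000000440, chr6:115360951-115490399, plus strand) encodes the receptor that drives fat cell formation and, in the colon, epithelial differentiation. It was at 33.0, 30.4 and 43.9 CPM in WT controls, 39.3, 31.9 and 23.6 in DSS, 45.2, 60.0 and 62.7 in DNBS and 68.9, 80.5, 91.4 and 171 in IL10. It was at 43.1, 44.2 and 44.6 CPM in Rag2 controls against 53.1, 62.2, 64.0 and 58.3 in TRUC, and at 48.9, 48.1 and 46.1 in Rag1 controls against 53.6, 80.2 and 65.7 in TCT and 39.3, 51.3 and 46.5 in anti-CD40. DNBS, IL10, TRUC and TCT lay wholly above their controls, DSS and anti-CD40 overlapped them. The share of all genes lying wholly above their controls was not counted. The test was passed in IL10 (2.88-fold, log2 fold change 1.53 ± 0.23, adjusted p = 1.5e-05), and without mouse 4 the change was 1.16 (adjusted p = 1.8e-05). It was 0.68 (adjusted p = 0.00209) when scaled to epithelium markers, and 0.49 (adjusted p = 0.0139) with both. It was 0.65 ± 0.24 in DNBS (adjusted p = 0.102), 0.43 ± 0.23 in TRUC (0.120) and 0.48 ± 0.24 in TCT (0.136), and against WT controls TCT passed (0.90, adjusted p = 0.00728). With edgeR on the 2 groups alone TRUC passed (0.43 ± 0.08, adjusted p = 0.000916).

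The PPARgamma targets tested include fat cell genes. Of 7 tested, 5 were lower and 1 higher in TRUC, 2 lower in TCT, 3 lower in anti-CD40, 3 higher in DSS, 1 higher in DNBS, and 3 higher and 1 lower in IL10. Angptl4, also counted above among the PPARalpha targets, is among those higher in DSS (2.10) and IL10 (1.68) and is the one in DNBS (2.66). Adipoq, the adipocyte hormone adiponectin, fell in TRUC (-3.24), TCT (-3.59) and anti-CD40 (-2.15), and the fatty acid binding protein Fabp4 fell in the same 3 (-1.45, -1.77 and -1.73). Against WT controls neither passed in TCT (Adipoq at -0.94, adjusted p = 0.419, and Fabp4 at -0.31, 0.502), and against Rag2 controls Adipoq did not pass in anti-CD40 (-1.67, 0.110). The 6 adipocyte markers, which include Adipoq, summed to 28.1 to 146 CPM in Rag2 controls and 11.4 to 34.3 in TRUC, and to 95.8 to 166 in Rag1 controls, 3.75 to 28.3 in TCT and 13.9 to 73.5 in anti-CD40. In IL10 the target counts were the same without mouse 4. The part of fat cell markers in the Pparg values was not tested.

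Ppargc1a (ENSMUSG00000029167, chr5:51454250-51567726, minus strand) encodes PGC-1alpha, the coactivator of mitochondrial biogenesis. It was at 102, 84.8 and 59.9 CPM in WT controls, 18.2, 35.5 and 6.31 in DSS, 37.5, 26.7 and 34.5 in DNBS and 34.3, 29.9, 19.7 and 8.36 in IL10, with every model mouse below every WT control. It was at 89.0, 52.1 and 91.1 CPM in Rag2 controls against 19.97, 18.5, 18.3 and 20.5 in TRUC. The Rag1 controls spread from 26.1 to 48.7 and 95.0 CPM and overlapped TCT (28.6, 27.9 and 25.9) and anti-CD40 (45.4, 27.9 and 34.6). Ppargc1a fell to 24.4% of control in DSS (log2 fold change -2.04 ± 0.47, adjusted p = 0.00187), 25.0% in TRUC (-2.001 ± 0.43, adjusted p = 0.000669) and 28.1% in IL10 (-1.83 ± 0.43, adjusted p = 0.00106, and -1.56 without mouse 4). It was at -1.32 ± 0.46 in DNBS (adjusted p = 0.0810) and -1.04 ± 0.46 in TCT (0.0906). In anti-CD40 it was at -0.66 (adjusted p = 0.318), and at -1.11 (0.0795) against Rag2 controls. Leaving out Rag1 control mouse 2 alone, it was at -0.44 in TCT (adjusted p = 0.535) and -0.06 in anti-CD40. The TCT value passed without Rag1 control mouse 4 (-1.38, adjusted p = 0.0339), scaled to epithelium markers (-1.32, 0.0369) and against WT controls (-1.58, 0.0125).

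Among the 6 tested PGC-1alpha targets, more passed as higher than as lower in 4 models. In TRUC 2 were higher and 0 lower, in IL10 3 and 0, in anti-CD40 2 and 0, in TCT 1 and 0, in DNBS 0 and 0, and in DSS 1 and 1. Cycs, cytochrome c of the respiratory chain, rose in TRUC (1.05), IL10 (1.75), TCT (0.79) and anti-CD40 (1.09), and Nrf1, a regulator of mitochondrial genes, rose in TRUC (0.43) and IL10 (0.45). Idh3a, a subunit of the citrate cycle enzyme isocitrate dehydrogenase, fell in DSS (-0.63, adjusted p = 0.0215). The higher counts depend on the scale: relative to epithelium markers 1 was higher and 3 lower in IL10, and 1 higher and 0 lower in TRUC. Without IL10 mouse 4, Cycs was at 1.59 and Nrf1 at 0.42 in IL10.

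Vdr (ENSMUSG00000022479, chr15:97854425-97910630, minus strand) encodes the vitamin D receptor. It was at 354, 336 and 398 CPM in WT controls, 77.7, 91.4 and 28.1 in DSS, 251, 198 and 219 in DNBS and 223, 230, 326 and 266 in IL10. It was at 354, 397 and 253 CPM in Rag2 controls against 93.0, 68.2, 89.7 and 139 in TRUC, and at 316, 344 and 285 in Rag1 controls against 196, 163 and 128 in TCT and 242, 164 and 283 in anti-CD40. In all 6 comparisons every model mouse lay below every mouse of its own control, which held for 3.08% of all genes (574 of 18616). In anti-CD40 this was narrow, with mouse 8 at 282.6 CPM against 285.1 in Rag1 control mouse 4. It did not hold against Rag2 controls, where control mouse 4 was at 253.3 CPM. The loss passed the test in 3 models, with Vdr at 18.2% of control in DSS (log2 fold change -2.46 ± 0.31, adjusted p = 6.2e-06), 29.1% in TRUC (-1.78 ± 0.28, adjusted p = 2.8e-05) and 51.6% in TCT (-0.96 ± 0.30, adjusted p = 0.0169). It was at -0.70 ± 0.30 in DNBS (adjusted p = 0.142), -0.47 ± 0.27 in IL10 (0.149, and 0.173 without mouse 4) and -0.46 ± 0.29 in anti-CD40 (0.280). Without DSS mouse 8, the lowest, the DSS change was -2.10. The TCT call was lost without Rag1 control mouse 3 (adjusted p = 0.0555) or TCT mouse 5 (0.0867) and held against WT controls (-1.16, 0.00528). Scaled to epithelium markers, Vdr passed in IL10 (-1.25, adjusted p = 0.000425, and -1.16, 0.00203, without mouse 4). With edgeR on the 2 groups alone Vdr passed in IL10 (-0.49, adjusted p = 0.0247) and DNBS (-0.70, 0.0375).

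Among 5 vitamin D targets, Cyp24a1, the enzyme that breaks the hormone down, had 0 counts in all mice, which allows up to 3 counts a mouse. Of the 4 tested, 1 was higher and 2 lower in TRUC, 0 and 2 in DSS, 0 and 2 in DNBS, 1 and 2 in IL10 (2 and 2 without mouse 4), 2 and 1 in TCT (0 and 1 against WT controls) and 0 and 2 in anti-CD40. The manganese exporter Slc30a10 fell in 5 models. It was at 9.37, 9.12 and 14.8 CPM in WT controls against 0.629, 5.74 and 0.320 in DSS, 1.31, 0.930 and 0.0852 in DNBS and 0.169, 0.208, 0 and 8.88 in IL10, and at 17.2, 21.5 and 27.8 in Rag2 controls against 0.221, 0.0889, 0.183 and 0.326 in TRUC. IL10 mouse 4 lay near the WT controls, and the other IL10 mice, the DNBS mice and the TRUC mice lay far below theirs. Slc30a10 passed in TRUC (-6.67), DNBS (-3.75), IL10 (-2.31), TCT (-6.90) and anti-CD40 (-5.96), and in DSS it was at -2.30 (adjusted p = 0.0638). Trpv6, the apical calcium channel, went the other way in 3 models. It was at 11.1, 9.10 and 8.45 CPM in Rag2 controls against 117, 131, 107 and 131 in TRUC, and at 5.02, 7.44 and 5.42 in Rag1 controls against 70.0, 41.4 and 65.5 in TCT. These groups were far apart, with rises of 3.67 and 3.30 on the log2 scale, and against WT controls the TCT value was 1.58 (adjusted p = 0.135). In IL10 the rise was 2.71, with mouse 4 at 0, and 3.12 without it. Slc30a10 was at -6.41 in IL10 without that mouse. The calcium pump Atp2b1 fell in DSS (-0.51), DNBS (-0.57), IL10 (-0.68, and -0.60 without mouse 4) and anti-CD40 (-0.57). S100g, a calcium-binding protein of the absorptive epithelium chosen after its values were seen, was lower in TRUC (-2.26) and DSS (-3.09) and higher in TCT (3.34, but 1.46 with adjusted p = 0.137 against WT controls). In IL10 it was at 1.49 (adjusted p = 0.0802), and at 1.81 (0.0341) without mouse 4.

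Ahr (ENSMUSG00000019256, chr12:35497974-35535038, minus strand) encodes the aryl hydrocarbon receptor, and 1.27% of its 50-base windows also occur in Gm48236, which had 44 counts in all. It was at 23.6, 24.7 and 23.4 CPM in WT controls, 19.4, 26.03 and 25.4 in DSS, 23.5, 23.3 and 19.4 in DNBS and 18.9, 16.5, 18.4 and 13.9 in IL10. It was at 23.7, 21.1 and 22.3 CPM in Rag2 controls against 18.4, 14.1, 14.01 and 17.6 in TRUC, and at 24.2, 23.4 and 23.3 in Rag1 controls against 27.0, 22.04 and 19.8 in TCT and 16.2, 16.5 and 17.8 in anti-CD40. The controls were tight, and IL10, TRUC and anti-CD40 lay wholly below them. Ahr fell by the following amounts in these 3: 0.48 ± 0.13 on the log2 scale in TRUC (adjusted p = 0.00493), 0.50 ± 0.13 in IL10 (0.00295) and 0.49 ± 0.14 in anti-CD40 (0.0162). The IL10 change was -0.42 (adjusted p = 0.0103) without mouse 4. The anti-CD40 call was lost without anti-CD40 mouse 6 (0.0551) or 7 (0.0676) and with no filter on low counts (0.0708). Against Rag2 controls it held (-0.41, adjusted p = 0.0379). In DSS, DNBS and TCT the change was between -0.12 and -0.02.

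Of 7 Ahr targets, 4 were tested, with 1 higher and 0 lower in TRUC, 1 and 1 in DSS, 1 and 0 in DNBS, 2 and 1 in IL10 (1 and 1 without mouse 4), 1 and 0 in TCT and 0 and 1 in anti-CD40. Cyp1a1, the classical one, had at most 11 counts in any mouse and was not tested. Nqo1, a quinone reductase, was higher in TRUC (0.84), DNBS (1.07), IL10 (1.25) and TCT (1.20) and lower in DSS (-0.77, adjusted p = 0.0372). The repressor Ahrr was lower in anti-CD40 (-1.21, adjusted p = 0.0348, but -0.50, 0.399, against Rag2 controls), and the aldehyde dehydrogenase Aldh3a1 was lower in IL10 (-3.02, and -2.66 without mouse 4). Nqo1 was at 1.24 in IL10 without that mouse.

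Hnf4a (ENSMUSG00000017950, chr2:163506808-163572910, plus strand) encodes a receptor that maintains the identity of gut epithelium. It was at 621, 685 and 840 CPM in WT controls, 405, 499 and 327 in DSS, 665, 695 and 716 in DNBS and 904, 1023, 1024 and 1313 in IL10. DSS lay wholly below and IL10 wholly above the WT controls. It was at 875, 1005 and 921 CPM in Rag2 controls against 754, 773, 791 and 831 in TRUC, and at 858, 933 and 935 in Rag1 controls against 801, 874 and 724 in TCT and 992, 1027 and 1082 in anti-CD40. Hnf4a fell to 57.3% of control in DSS (log2 fold change -0.80 ± 0.14, adjusted p = 0.000134) and rose 1.49-fold in IL10 (0.58 ± 0.13, adjusted p = 0.000787, and 0.45 without mouse 4), where it was at -0.23 (adjusted p = 0.0547, and 0.0794 without mouse 4) when scaled to epithelium markers. On that scale Hnf4a passed as lower in TRUC (-0.61, adjusted p = 6.9e-05) and TCT (-0.47, adjusted p = 0.00238), where on the TMM scale it did not (-0.25 and -0.18, adjusted p = 0.119 and 0.330). With edgeR on the 2 groups alone, also on the TMM scale, it passed in TRUC (-0.25, adjusted p = 0.0135).

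Of 7 HNF4A targets, 4 were tested, and 3 were higher in IL10, 1 in TCT, 1 in anti-CD40, and 1 was lower in DSS. In IL10, Apob rose by 0.93 and Mttp, which loads lipid onto Apob, by 1.04, and by 1.06 and 0.99 without mouse 4. Apoa1 passed in IL10 on 1 to 18 counts against 0 to 2 in the WT controls, a level at least 3.56-fold higher, and still passed without mouse 4 (adjusted p = 0.00559). Apob rose by 5.73 in TCT but was at 0.68 (adjusted p = 0.0725) against WT controls, and its level fell into separate ranges that crossed the model and control groups. It was at 37.3 to 117 CPM in WT control, DSS, DNBS, IL10 and TCT mice and at 1.07 to 4.88 CPM in Rag2 control, TRUC, Rag1 control and anti-CD40 mice. The TCT libraries and their labelled controls lay in different ranges, as they did for Rag1 and Rag2 reads.

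Nr5a2 (ENSMUSG00000026398, chr1:136842571-136960448, minus strand) encodes LRH-1, which supports crypt renewal and local steroid synthesis. It was at 55.4, 47.4 and 43.2 CPM in WT controls, 24.3, 28.7 and 5.03 in DSS, 33.7, 26.7 and 36.1 in DNBS and 16.9, 13.4, 26.1 and 38.9 in IL10. It was at 57.7, 55.9 and 58.0 CPM in Rag2 controls against 16.1, 10.9, 14.7 and 18.3 in TRUC, and at 70.9, 59.1 and 47.6 in Rag1 controls against 19.99, 28.2 and 18.6 in TCT and 33.6, 24.7 and 34.5 in anti-CD40. As for Vdr, every model mouse lay below every mouse of its own control in all 6 comparisons. Nr5a2 fell to 26.2% of control in TRUC (log2 fold change -1.93 ± 0.36, adjusted p = 0.000170), 37.6% in TCT (-1.41 ± 0.38, 0.00710), 39.9% in DSS (-1.32 ± 0.38, 0.00993) and 48.9% in IL10 (-1.03 ± 0.35, 0.0167). It was at -0.94 ± 0.38 in anti-CD40 (adjusted p = 0.0784) and -0.60 ± 0.38 in DNBS (0.337). In IL10 the change was -1.38 (0.00291) without mouse 4, and the call was lost without WT control mouse 1 (0.0574), IL10 mouse 1 (0.0528) or IL10 mouse 2 (0.0580). In DSS it was -0.88 without mouse 8, and the call was lost on the 2 groups alone (0.111). In anti-CD40 it passed when scaled to epithelium markers (-1.28, adjusted p = 0.0118) and on the 2 groups alone (-0.93, 0.00471). Against WT controls the TCT change was -1.13 (adjusted p = 0.0285).

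Of 5 LRH-1 targets, 3 were tested. The cell cycle genes Ccne1 and Ccnd1 passed on the higher side. Ccne1 (cyclin E1) rose in TRUC (1.97), DSS (1.41), IL10 (1.19) and TCT (0.87), and Ccnd1 (cyclin D1) in TRUC (0.78), DSS (1.12) and IL10 (0.73, adjusted p = 0.0224, and 0.0842 without mouse 4). Cyp11a1, the first enzyme of steroid synthesis, was lower in TRUC (-2.54), with at most 3 counts in each TRUC mouse against 8 to 22 in the Rag2 controls, a level at least 4.21-fold lower, and in IL10 (-2.18, adjusted p = 0.0210, and 0.0531 without mouse 4). Ccne1 was at 1.30 in IL10 without mouse 4. Scaled to epithelium markers, 1 target was higher in TRUC, 2 in DSS and 0 in IL10 and TCT. Of all genes, 10.2% were higher on that scale in TRUC, 30.4% in DSS, 7.30% in IL10 and 9.41% in TCT.

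**Figure D4:**
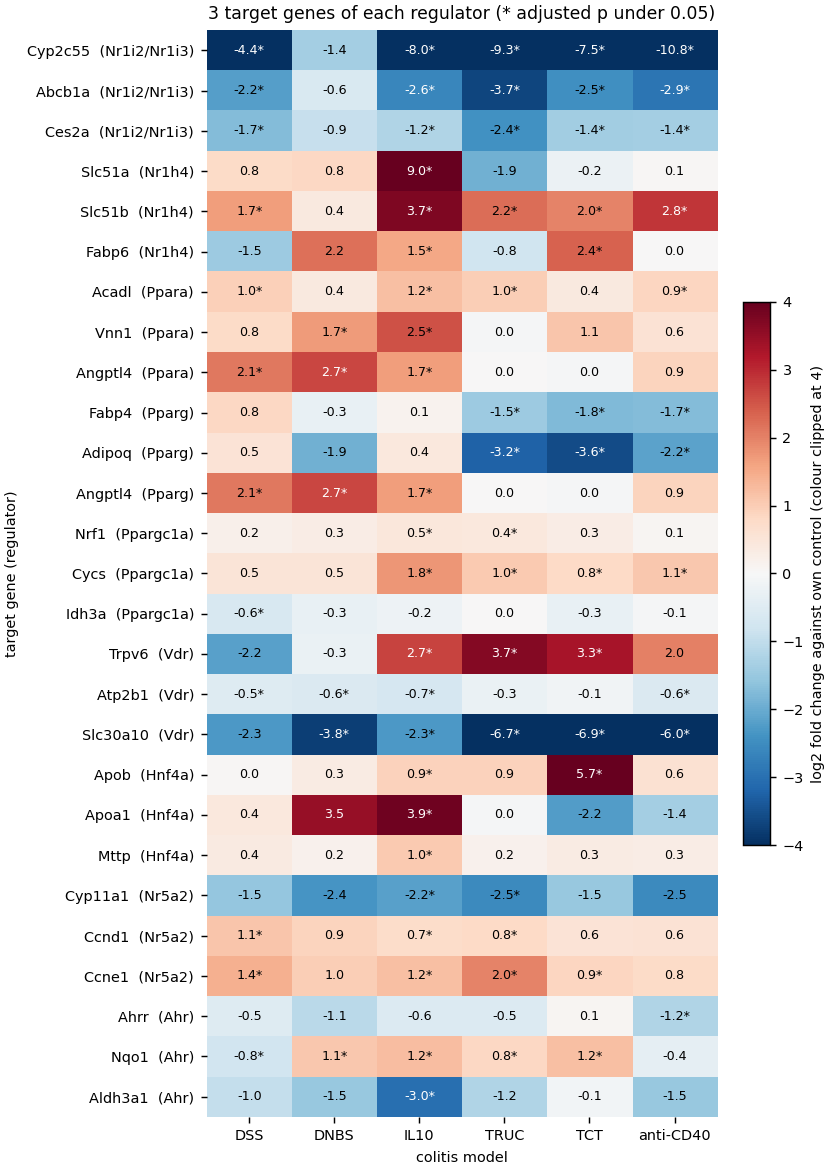
Log2 fold change (numbers and colour, colour clipped at 4) of 3 target genes per regulator, named by the size of their median change, in the 6 models, with a star for an adjusted p under 0.05. Cyp2c55, Abcb1a and Ces2a are starred blue in every model but DNBS, Slc51b is starred red in the same 5, and the starred Slc51a value in IL10 comes from mouse 4 alone.

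A test that the 6 models change a gene equally (edgeR quasi-likelihood F test, adjusted over all genes) was rejected for 7 of the 10, against 60.5% of all genes. These were Hnf4a (adjusted p = 7.8e-07), Pparg (3.3e-05), Nr1h4 (6.6e-05), Vdr (6.7e-05), Ppara (0.000112), Nr1i2 (0.00264) and Ahr (0.00463). It was not rejected for Nr5a2 (0.157), Ppargc1a (0.253) or Nr1i3 (0.455), which does not show that the models change them equally. Nr5a2 ranged from -1.93 to -0.60 and Ppargc1a from -2.04 to -0.66 over the models.

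Over the 29 mice, the log2 levels of several members moved together. These correlations describe mice that share groups and controls, with a library for each mouse. Pearson's r was 0.887 for Nr1i2 with Vdr, 0.853 for Ppara with Nr5a2, 0.830 for Vdr with Nr5a2 and 0.814 for Ppara with Vdr, and -0.788 for Nr1h4 with Ahr. Against the summed leukocyte markers r was -0.915 for Nr5a2, -0.905 for Ppara, -0.815 for Vdr, -0.759 for Ppargc1a and -0.715 for Nr1i2. Against the summed epithelium markers it was 0.837 for Nr1h4, 0.826 for Pparg, 0.780 for Hnf4a and -0.743 for Ahr. The pancreas marker sum, which was nearly all Cela1, ran from 439 to 477 CPM in Rag2 controls and 57.3 to 84.5 in TRUC. Its r was 0.806 for Ppargc1a and 0.761 for Ppara. Cela1 fell in TRUC (-2.79), while Prss2 rose (5.92) from at most 1 count in each Rag2 control. Cpa1, Ctrb1 and Pnlip were not tested, so this sum describes Cela1 and not a cell type. How far these marker levels contribute to the members' changes was not tested.

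**Figure D5:**
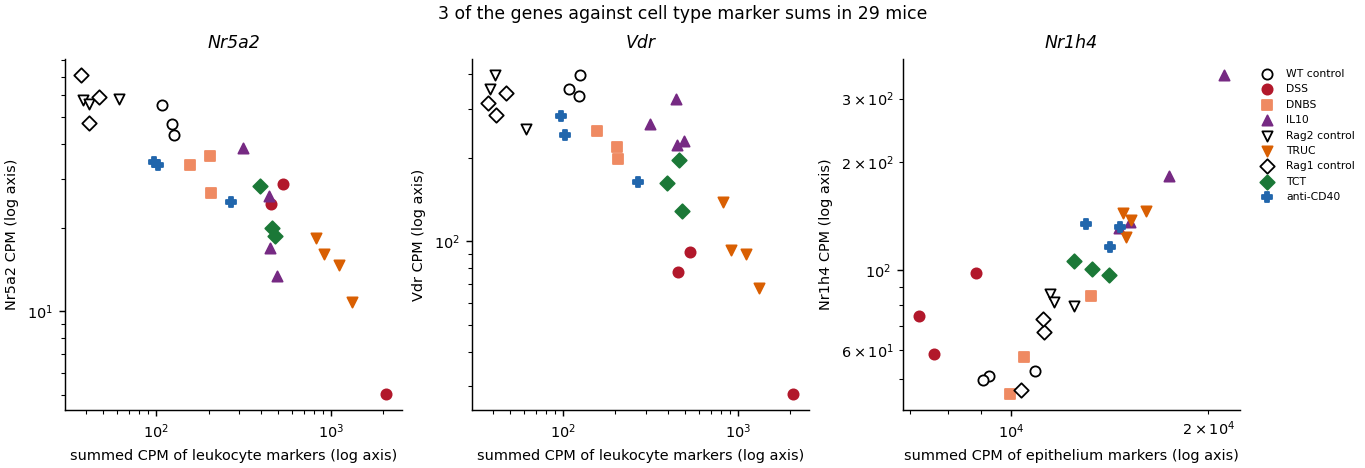
CPM of Nr5a2 and Vdr against the summed CPM of 7 leukocyte markers, and of Nr1h4 against that of 9 epithelium markers, in 29 mice (both axes log, symbols by group, controls open). Nr5a2 and Vdr decline from the Rag1 and Rag2 controls at the left to DSS mouse 8 at 2084 CPM of leukocyte markers. The WT controls (108 to 126 CPM of these markers) lie to the right of anti-CD40 mice 8 (97.1) and 6 (102.9). Nr1h4 reaches 349 CPM in the mouse with the highest epithelium sum, 21160.

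The genes whose pattern over the 29 mice was most like each member were named by the highest r. They were Pheta1 (0.970), Inpp5j and Tst for Vdr, and Cftr (0.953), the chloride channel of the crypt, Selenbp1 and Vsig10 for Nr5a2. For Ppara they were Hdac11 (0.944), Pkdcc and Cyp4f13, for Nr1i2 Slc39a5 (0.936), Hadh and Ugt2b34, and for Ppargc1a Pde7a (0.919), Pdp2 and D630039A03Rik. For Nr1h4 they were Cldn7 (0.946), which is itself among the epithelium markers, Ms4a8a and Misp, for Hnf4a Myo7b (0.938), Camsap3 and Kdf1, for Pparg Itpk1 (0.881), Htatip2 and Degs2, and for Ahr Itpr1 (0.894), Syne1 and Smad5. For Nr1i3 no r exceeded 0.698 (Gm12932).

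Losses also outnumbered gains among 41 other nuclear receptor genes, of which 35 were tested. In TRUC 0 were higher and 18 lower, in DSS 3 and 12, in DNBS 1 and 2, in IL10 5 and 14, in TCT 2 and 7 and in anti-CD40 3 and 9, with medians from -0.42 to -0.16. Without IL10 mouse 4 the IL10 counts were 4 and 16. Scaled to epithelium markers, DSS turned to 5 higher and 6 lower, where 30.4% of all genes were higher and 6.26% lower. The other models kept more lower than higher, as did all genes on that scale. In TRUC 25 of the 35 were lower (39.2% of all genes), in IL10 27 (62.8%) and in DNBS 3 (2.51%). In TCT 12 were lower (24.6%) and in anti-CD40 16 (25.2%). Esr2, the beta oestrogen receptor, fell in 5 models (log2 fold changes from -3.09 in TCT to -2.17 in TRUC) and was at -0.95 in DNBS (adjusted p = 0.229). Esrrg, a receptor that works with PGC-1alpha, fell in TRUC (-1.91), DSS (-1.79) and IL10 (-1.76, with mouse 4 at 0, and -1.36 without it). Esr2 was at -2.71 in IL10 without that mouse. Nr1h5, a second FXR-like gene, fell in TRUC, where its counts of at most 3 put it at least 4.96-fold lower, in DSS and in anti-CD40. Nr1d1, a repressor of the circadian clock chosen after its values were seen, fell by 4.58 in TRUC (adjusted p = 4.7e-08). In no other model did it pass against the model's own control. It was lower in anti-CD40 against Rag2 controls (-3.23, adjusted p = 2.6e-05) and in TCT against WT controls (-1.44, 0.0105), so its calls depend on the control used.

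Partners shared by these receptors were tested as a list of their own. Of 11 partners and cofactors, which include the 3 Rxr genes also counted above, 1 was higher and 4 lower in TRUC, 0 and 3 in DSS, 0 and 0 in DNBS, 1 and 2 in IL10, 0 and 2 in TCT and 1 and 1 in anti-CD40. Rxra, the main dimer partner, passed in IL10 alone (0.75, adjusted p = 0.00136, and 0.49 without mouse 4). The IL10 counts were 1 and 2 without mouse 4 as well. Rxrg fell in TRUC (-1.12), IL10 (-1.65, and -1.67 without mouse 4), TCT (-1.49) and anti-CD40 (-1.28), at levels of at most 1.71 CPM in any mouse. The coactivator Ncoa2 fell in TRUC (-0.30) and DSS (-0.40), and Ppargc1b, the closest relative of Ppargc1a, fell in DSS (-0.69, adjusted p = 0.0212). Scaled to epithelium markers, 9 partners were lower in TRUC and 10 in IL10, with 0 higher in both, where 39.2% and 62.8% of all genes were lower.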

How the data were processed

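Poly(A) RNA from colon segments was sequenced, with a library for each of 29 mice. The submitters' processing notes name Trimmomatic, HISAT2, HTSeq and GRCm38, in no stated order and without versions, and strand use in the counting is not given in the sources used here. The table that the authors deposited holds counts (whole reads assigned to each gene), not normalized. Its 92 spike-in rows held 0 counts and were left out.

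The 18616 genes whose count averaged 3 or more over the mice were kept, and the counts, in edgeR 4.0.16 (R 4.3.3), were scaled by TMM and fitted in a quasi-likelihood model of all 9 groups without covariates. Adjusted p values are Benjamini-Hochberg over all genes tested, with a threshold of 0.05. Standard errors are the size of the log2 fold change over the square root of F. CPM per kb uses the exon union of GENCODE M21. The test steps were tested on simulated counts. Replicate columns were checked for duplicates: the lowest chi-square per degree of freedom among 33 same-group pairs was 3.42. The labels do not say whether mice shared cages or litters, so p values measure the spread between these mice.

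Members and gene lists were chosen with earlier results of these data known. All 10 members are named. For each other list the counts and the 3 genes with the largest median change over the models are named, and for each member the 3 genes of highest Pearson r of log2 CPM (prior count 2). Other genes named were chosen after their values were seen. Alternatives were RLE size factors, scaling to epithelium markers, no filter, DESeq2 1.42.0, the 2 groups alone, other control groups, leaving out each mouse, and the replicate number as a block. Leaving out IL10 mouse 4 for the gene lists, scaling them to epithelium markers, their other control groups, and the members in IL10 scaled to epithelium markers without that mouse, were added after the data were seen. Of the marker lists, epithelium counted 5 higher and 0 lower in TRUC, 1 and 3 in DSS, 1 and 0 in DNBS, 8 and 0 in IL10, 1 and 1 in TCT and 3 and 0 in anti-CD40. Smooth muscle markers were lower for 2 of 6 in TRUC and 5 in IL10 (4 without mouse 4), adipocyte markers for 6 of 6 in TRUC, 5 in TCT and 2 in anti-CD40, and higher for 1 in DSS and 1 in IL10. Hepatocyte markers summed to at most 17.5 CPM, with 2 lower in TCT and in anti-CD40. Pancreas markers had 1 lower in TRUC, DSS, IL10, TCT and anti-CD40, and 1 higher in TRUC and IL10. Promoter windows are from RefSeq on GRCm38.p6.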

Additional observations from a re-analysis of the deposited data

Results flagged for a closer look

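The change of 7 of the 10 genes differed between the 6 models in edgeR's quasi-likelihood F test, adjusted over all genes, where 60.5% of all genes did. The adjusted p was 7.8e-07 for Hnf4a, 3.3e-05 for Pparg, 6.6e-05 for Nr1h4, 6.7e-05 for Vdr, 0.000112 for Ppara, 0.00264 for Nr1i2 and 0.00463 for Ahr. Log2 fold changes ran from -0.80 in DSS to 0.58 in IL10 for Hnf4a, where the IL10 value was -0.23 when scaled to epithelium markers, and from 0.30 in DNBS to 1.97 in IL10 for Nr1h4.

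In the groups of 4 mice, TRUC and IL10, 1 mouse far from the other 3 was looked for by Dixon's criterion at the 95% level, which chance passes in about 1 of 20 groups. None of the 20 member values passed. Of 100 values of other named genes, 8 passed, 4 of them in IL10 mouse 4: Slc51a at 118.7 CPM, Slc30a10 at 8.88 CPM, Cyp2c55 at 6.06 CPM and Esrrg at 0 CPM. TRUC mouse 5 was high in Esrrg (2.85 CPM) and, on a few counts, in Slc51a (0.0814 CPM) and Lep (0.244 CPM), and IL10 mouse 3 in Nr0b2 (0.0857 CPM).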

How the results depend on the processing

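The counts of members called were within 1.5 times of the reported ones in TRUC, DSS and IL10 under every alternative run. In DNBS the count of 0 became 1 with DESeq2 and 3 on the 2 groups alone, and in anti-CD40 the 3 became 5 when scaled to epithelium markers. On the 2 groups alone 7 member values gained a call and 1 lost it (Nr5a2 in DSS). The gains were Nr1i2, Ppargc1a and Vdr in DNBS, Pparg and Hnf4a in TRUC, Vdr in IL10 and Nr5a2 in anti-CD40. Leaving out each mouse gave 2 to 6 in TCT, with 2 without Rag1 control mouse 3 or TCT mouse 5, 5 to 7 in TRUC, 6 in DSS, 0 in DNBS, 5 to 8 in IL10, 2 to 3 in anti-CD40, and 7 to 8 members whose change differed between models. Hnf4a in IL10 lost its call (adjusted p = 0.0547) and its sign turned, to -0.23, when scaled to epithelium markers, and likewise without IL10 mouse 4 (0.0794). That scaling moved the calls over all genes to 1891 higher and 7290 lower in TRUC, 5650 and 1165 in DSS, 290 and 467 in DNBS, 1359 and 11688 in IL10, 1752 and 4577 in TCT and 720 and 4687 in anti-CD40. The cause was not tested.

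Same-numbered mice did not deviate together in TRUC (r = -0.052 and -0.005) or IL10 (0.056, 0.014 and -0.020). These few pairs, of deviations centred within groups, cannot show whether mice shared a cage, litter or batch. The deposited column names of TRUC mice 4 and 5 differ in form from those of mice 2 and 3, for a reason not given. With the replicate block, 7 members were called in TRUC and 7 in IL10, with 7029 of 18072 and 7630 of 18543 genes called in all. The block left 1 residual degree of freedom in TRUC and 2 in IL10, so little information on the spread stands behind its calls. Ahr in TRUC did not pass under it (adjusted p = 0.108), and Pparg in TRUC (0.0418) and Vdr in IL10 (0.0113) did. The other models share fewer than 2 numbers with their controls.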
